A study of Mus musculus with 45 samples.

Results

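The Krüppel-like factors (Klf) described here are the 9 genes Klf2, Klf3, Klf4, Klf5, Klf6, Klf7, Klf9, Klf10 and Klf13, found by their symbols among the 33924 genes listed in each of 2 expression tables from mouse embryonic stem cells (ESCs). The study asked what the locus of the long noncoding RNA 5430416N02Rik does in ESCs, a locus it reached through RNAs bound by the Klf4 protein. Both tables came from D3 ESCs, labelled as strain 129, whose growth medium held leukemia inhibitory factor (LIF). In ΔPG cells the promoter and gene body of 5430416N02Rik were replaced by a PGK-driven puromycin cassette, and in ΔG cells the gene body alone was replaced by a GFP-IRES-Puro cassette. Each table held heterozygous (het) and homozygous (hom) cells, either in the ES state, labelled ES and given DMSO, or after 48 h with 2 µM retinoic acid, labelled RA, with 3 samples in each of the 8 groups. All 24 samples thus carried at least 1 replaced allele, and unedited cells were not among the samples compared. Whether LIF was kept during the 48 h with retinoic acid or DMSO is not given in the sources used here. The sample labels name no clone. The study's own plot of these libraries marks the replicates of each genotype and line with 1 clone name, and if so clone and genotype cannot be told apart and p-values measure the spread between samples of a clone. For 5430416N02Rik the hom minus het difference on the log2 scale was -2.30 (ΔPG) and -2.79 (ΔG) in the ES state and -1.81 and -2.75 after retinoic acid, in the direction the labels give.

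Klf proteins are transcription factors with a C-terminal block of zinc fingers that binds GC-rich and CACCC-type DNA, while their N-terminal parts differ and recruit activators or repressors. In mouse ESCs Klf2, Klf4 and Klf5 belong to the network that keeps the naive pluripotent state: LIF acts through STAT3 on Klf4, and the targets of the 3 factors overlap widely with those of Nanog and other core factors. Klf3 is mainly a repressor that works with CtBP proteins, Klf9, Klf10 and Klf13 can recruit Sin3 corepressors, and Klf6 and Klf7 are close relatives of each other, the first widely expressed and the second best known from developing neurons. Retinoic acid drives ESCs out of the pluripotent state.

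On NCBIM37, the build of the counts, Klf4 (ENSMUSG00000003032.7) spans chr4:55540013-55545347 on the minus strand, Klf2 (ENSMUSG00000055148.7) chr8:74842932-74845555 and Klf5 (ENSMUSG00000005148.7) chr14:99697910-99712624 on the plus strand, and the other 6 members lie on chromosomes 5 (Klf3), 13 (Klf6), 1 (Klf7), 19 (Klf9), 15 (Klf10) and 7 (Klf13). The sequences next to the start sites of the member with the largest fall under retinoic acid, of Klf4 and of the member with the highest level after retinoic acid are shown first, since they hold the kind of GC-rich site that Klf proteins themselves bind. Each is the 250 bases before the RefSeq start (GRCm38.p6), 5′ to 3′ on the gene's strand. Capitals mark a GC box (GGGCGG or its complement) or a CACCC box (CACCC or its complement).
Klf2, chr8:72318812-72319061, plus strand: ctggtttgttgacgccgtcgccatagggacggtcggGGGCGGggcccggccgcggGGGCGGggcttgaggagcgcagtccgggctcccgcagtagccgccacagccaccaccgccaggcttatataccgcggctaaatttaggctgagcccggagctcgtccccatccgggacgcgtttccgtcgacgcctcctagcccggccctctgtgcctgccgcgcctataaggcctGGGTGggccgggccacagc
Klf4, chr4:55532476-55532725, minus strand: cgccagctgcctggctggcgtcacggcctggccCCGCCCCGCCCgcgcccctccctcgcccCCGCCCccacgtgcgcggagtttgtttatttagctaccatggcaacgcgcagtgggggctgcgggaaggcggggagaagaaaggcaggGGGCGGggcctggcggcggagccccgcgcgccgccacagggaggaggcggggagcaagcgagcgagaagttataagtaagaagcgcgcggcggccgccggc
Klf6, chr13:5861239-5861488, plus strand: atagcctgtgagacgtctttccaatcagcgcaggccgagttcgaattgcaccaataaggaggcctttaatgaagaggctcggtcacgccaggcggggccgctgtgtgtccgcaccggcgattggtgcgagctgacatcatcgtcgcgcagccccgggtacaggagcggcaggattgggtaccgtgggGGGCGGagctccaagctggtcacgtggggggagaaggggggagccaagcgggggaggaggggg

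The Klf4 window held 4 GC boxes, a pair of which overlap, and no CACCC box, the Klf2 window 2 GC boxes and 1 CACCC box, and the Klf6 window 1 GC box. RefSeq windows were matched for 7 of the 9 members, those of Klf5 and Klf10 being named only, and the Klf7 window lay inside the span of the RefSeq gene. A GC box was present in 6 of the 7 and a CACCC box in 5 of the 7, against 32.7% and 52.0% of 32851 RefSeq windows of the same length. The 7 windows had a GC content of 59.2% to 78.4%. The 32851 windows were not matched to it, so the shares cannot tell a motif from base composition. A TATA box (TATAA, either strand) had 2 matches in the Klf2 window, 2 in the Klf4 window and none in the other 5, against 22.8% of all windows. The CCAAT box (CCAAT, either strand) showed the other division, with 4 matches in Klf6, 3 in Klf9 and 2 in Klf13 and none in the other 4 windows, against 33.8% of all windows. No window held the STAT-type palindrome TTCCNGGAA, which was in 0.913% of all windows. The 2 matches in Klf4 share letters, being 1 stretch read on both strands. Both strands were searched for each motif, and a match describes the letters only.

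Expression was compared as rlog values, a log2-scale value per gene that the authors computed from read counts and that pulls low counts towards the gene's mean, so that a difference of 1 stands for a doubling and is understated for genes with few reads. The deposited tables give no counts, so the depth of each library is unknown. A gene was called when its adjusted p was under 0.1 and its difference exceeded 0.5 on the log2 scale. The ΔPG and ΔG tables were normalized separately and were compared only side by side. All 9 members varied and passed without a filter on low values, with group means from 4.99 to 9.28.

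**Figure D1:**
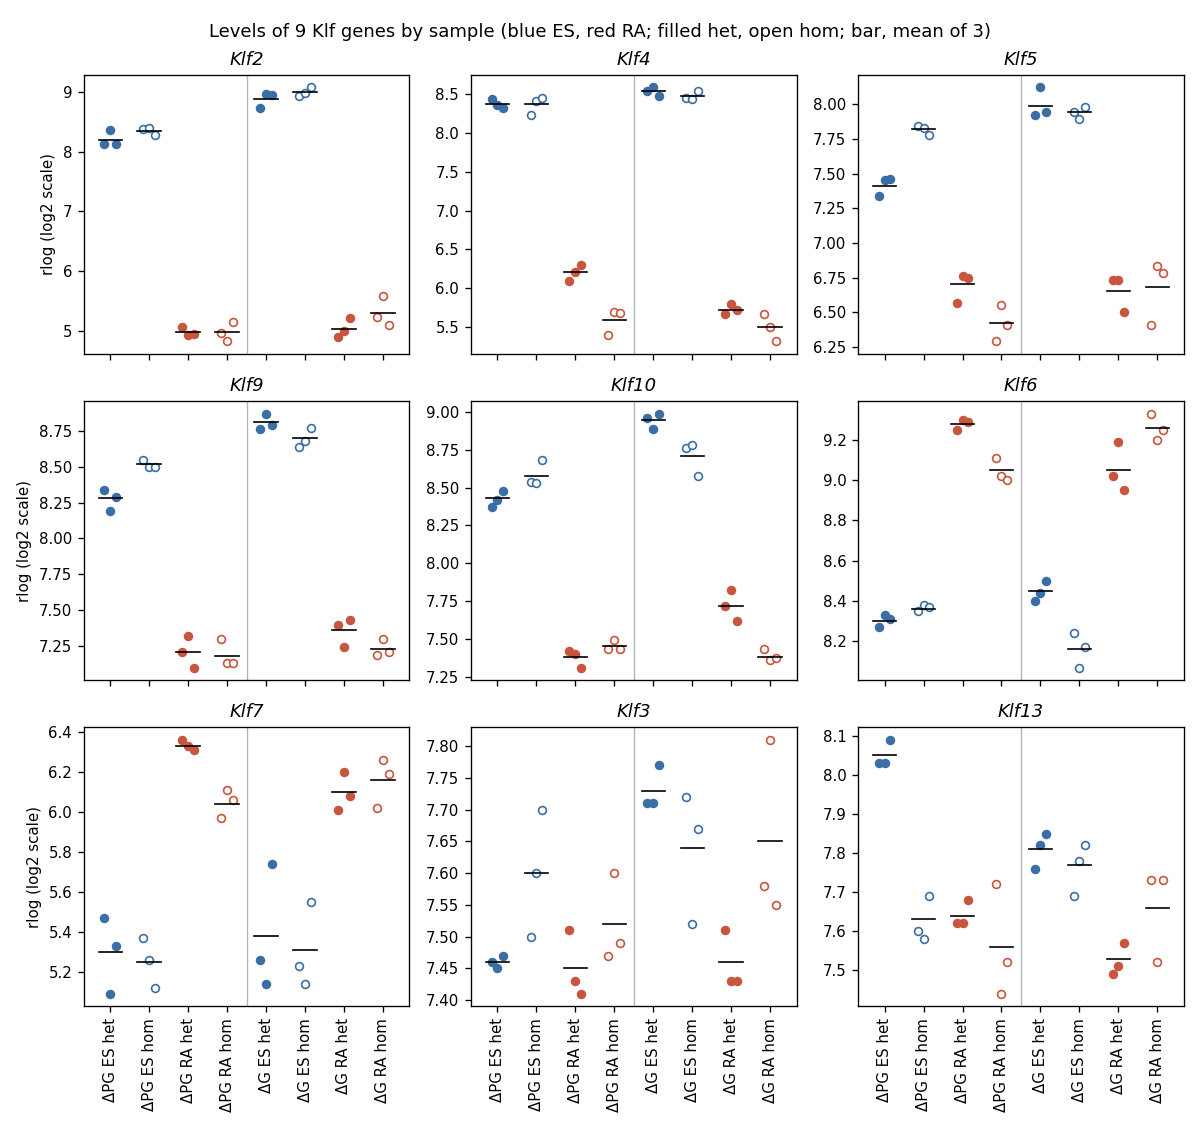
Level of each Klf gene in all 24 samples as rlog (log2 scale), with the 8 groups on the x axis, 3 samples per group as points and their mean as a bar. Klf2, Klf4, Klf5, Klf9 and Klf10 sit lower in every RA sample than in any ES sample of the same line, Klf6 and Klf7 sit higher, and the y axes differ between genes and do not start at 0.

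Retinoic acid divided the members the same way in all 4 kinds of cell. Klf2, Klf4, Klf5, Klf9 and Klf10 fell, Klf6 and Klf7 rose, and Klf3 and Klf13 were not called. The 5 members called lower stand beside 13.6% of the 21979 genes tested called lower in het ΔPG cells, 11.3% in hom ΔPG cells, and 11.7% and 12.1% of 22048 genes in het and hom ΔG cells. The 2 members called higher stand beside 18.0%, 16.5%, 17.7% and 17.0% of genes called higher in the same order. Among genes with a mean rlog of at least 3, as all 9 members have, the shares called in either direction were 49.5%, 42.6%, 45.5% and 46.4%. In ΔPG cells 2706 (het) and 2254 (hom) of these 11904 genes were lower and 3181 and 2814 higher. In ΔG cells 2398 (het) and 2478 (hom) of 11997 were lower and 3059 and 3091 higher. The median difference of the 9 members was -0.72 in het ΔPG, -1.13 in hom ΔPG, -1.23 in het ΔG and -1.26 in hom ΔG cells, while the medians of all genes lay between 0.0052 and 0.043. With bulk RNA, fewer cells of a type and less RNA per cell cannot be told apart.

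Klf2, an activator of the naive network, fell most. In ΔPG cells its rlog was 8.13, 8.36 and 8.12 in the het ES samples and 8.38, 8.39 and 8.28 in the hom ES samples. After retinoic acid it was 5.07, 4.93 and 4.95 in het and 4.97, 4.83 and 5.16 in hom samples. All RA samples lay far below all ES samples, and the genotypes overlapped within each state. The difference was -3.22 (SE 0.0792, adjusted p = 6.03e-08) in het and -3.36 (SE 0.0921, adjusted p = 1.64e-10) in hom ΔPG cells, or 9.31-fold and 10.3-fold. In ΔG cells it was -3.83 (SE 0.0979) in het and -3.68 (SE 0.104) in hom cells, or 14.2-fold and 12.8-fold.

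Klf4, the reprogramming factor whose bound RNAs led the study to this locus, showed the second largest fall of the members in each comparison. In ΔPG cells its rlog in the ES state was 8.44, 8.37 and 8.32 in het and 8.24, 8.42 and 8.46 in hom samples. After retinoic acid it was 6.09, 6.20 and 6.30 in het and 5.39, 5.69 and 5.68 in hom samples. The genotypes overlapped in the ES state and stood apart after retinoic acid, each hom RA sample lying below each het RA sample. The fall was -2.18 (SE 0.0624, adjusted p = 1.29e-07), or 4.53-fold, in het and -2.79 (SE 0.0964, adjusted p = 9.97e-10), or 6.92-fold, in hom cells. In ΔG cells the ES values were 8.55, 8.59 and 8.48 in het and 8.45, 8.44 and 8.55 in hom samples, and the RA values 5.66, 5.79 and 5.72 in het and 5.66, 5.5 and 5.31 in hom samples. The fall there was -2.82 (SE 0.0734) in het and -2.99 (SE 0.0941) in hom cells.

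Klf5, the third Klf of the naive network, fell less. In ΔPG cells its rlog was 7.34, 7.45 and 7.46 in het and 7.84, 7.83 and 7.78 in hom ES samples, and 6.57, 6.76 and 6.75 in het and 6.29, 6.55 and 6.41 in hom RA samples. All 4 groups were separate in the order hom ES, het ES, het RA, hom RA, so the hom samples were the highest in one state and the lowest in the other. The fall was -0.72 (SE 0.0652, adjusted p = 5.15e-05) in het and -1.40 (SE 0.0765, adjusted p = 4.28e-08) in hom ΔPG cells, and -1.34 (SE 0.0864) and -1.26 (SE 0.0983) in het and hom ΔG cells. In het ΔPG cells the difference was -0.48 once the trend with GC content was removed, which is under the limit of 0.5.

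Klf9 and Klf10, a hormone-responsive and a TGFβ-inducible factor, also fell at each comparison. Klf9 lay between 8.19 and 8.55 in the ES samples and between 7.10 and 7.32 in the RA samples of ΔPG cells. In ΔG cells it lay between 8.64 and 8.87 in ES and between 7.19 and 7.43 in RA samples. Its differences were -1.06 and -1.33 in het and hom ΔPG and -1.45 and -1.46 in het and hom ΔG cells. Klf10 lay between 8.37 and 8.68 in the ES samples and between 7.31 and 7.49 in the RA samples of ΔPG cells. In ΔG cells it lay between 8.58 and 8.99 in ES and between 7.36 and 7.82 in RA samples. Its differences were -1.05, -1.13, -1.23 and -1.32 in the same order as for Klf9. The standard errors of these 8 differences ran from 0.0448 to 0.0687, and neither gene had an RA sample as high as an ES sample of its table.

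Klf6, a widely expressed activator that responds early to many stimuli, rose instead. In ΔPG cells its rlog was 8.27, 8.33 and 8.31 in het and 8.35, 8.38 and 8.37 in hom ES samples, and 9.25, 9.30 and 9.29 in het and 9.11, 9.02 and 9.0 in hom RA samples. In ΔG cells it was 8.40, 8.44 and 8.50 in het and 8.24, 8.07 and 8.17 in hom ES samples, and 9.02, 9.19 and 8.95 in het and 9.33, 9.20 and 9.25 in hom RA samples. The larger rise was in het cells for ΔPG and in hom cells for ΔG. The differences were 0.98 (SE 0.0286) and 0.68 (SE 0.0455) in het and hom ΔPG cells and 0.61 (SE 0.0641) and 1.10 (SE 0.0593) in het and hom ΔG cells, with adjusted p values of 1.4e-07, 2.29e-07, 2.77e-06 and 2.79e-11. Klf7 lay between 5.09 and 5.47 in the ES samples and between 5.97 and 6.36 in the RA samples of ΔPG cells. In ΔG cells it lay between 5.14 and 5.74 in ES and between 6.01 and 6.26 in RA samples. Its differences were 1.03 (SE 0.0988), 0.80 (SE 0.102), 0.72 (SE 0.139) and 0.85 (SE 0.122) in the same order, and its ES replicates were more spread than those of Klf6.

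Klf3 and Klf13, the CtBP-dependent repressor and a relative of Klf9, stayed within 0.5 of their ES level. Klf3 ranged only from 7.41 to 7.70 over the ΔPG samples and from 7.43 to 7.81 over the ΔG samples. Its differences were -0.01 (95% interval -0.10 to 0.088) and -0.08 (-0.23 to 0.071) in het and hom ΔPG cells and -0.28 (-0.42 to -0.13) and 0.01 (-0.17 to 0.18) in het and hom ΔG cells. Klf13 gave -0.41 (-0.50 to -0.33), -0.07 (-0.24 to 0.10), -0.28 (-0.42 to -0.15) and -0.11 (-0.27 to 0.055) in the same order. For both genes the 95% intervals stayed within 0.5 of no difference, although Klf13 in het ΔPG cells (adjusted p = 4.31e-05) and Klf3 and Klf13 in het ΔG cells (adjusted p = 0.00294 and 0.00216) passed the p limit.

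**Figure D2:**
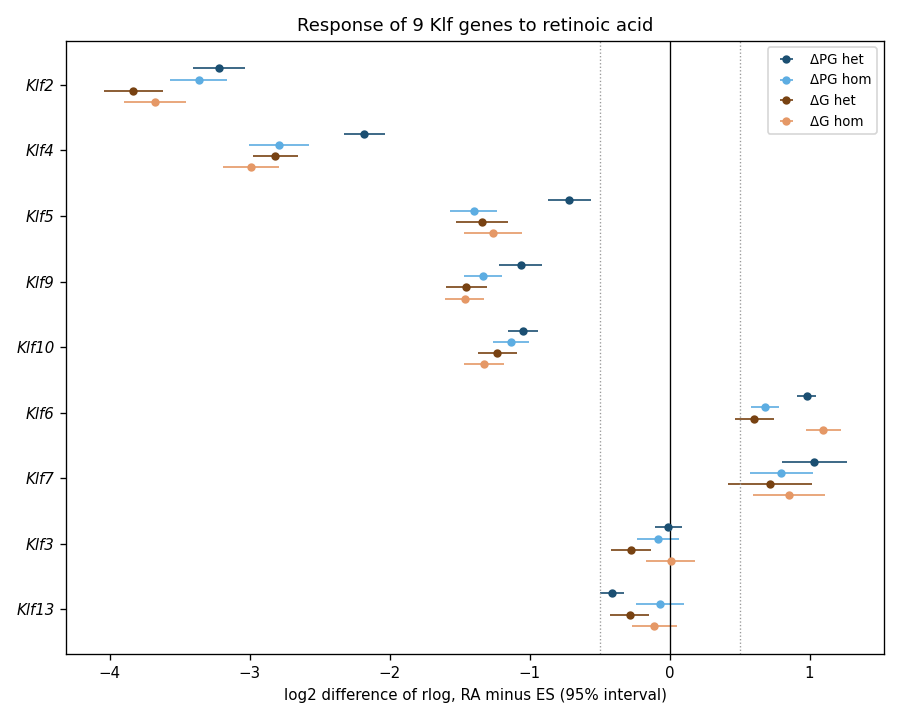
Difference between RA and ES samples for each Klf gene in the 4 kinds of cell, as the log2 difference of rlog with its 95% interval from limma (3 against 3 samples); dotted lines mark 0.5 in each direction. Klf2 (-3.22 to -3.83) and Klf4 (-2.18 to -2.99) lie farthest to the left, Klf6 and Klf7 to the right, and Klf3 and Klf13 near 0.

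To compare levels between genes, the rlog mean was set per kilobase of exonic length in GENCODE vM1 (mean rlog minus log2 of kb). On this scale Klf2 ranked 1 of the 9 in all 4 ES groups, with levels from 7.32 to 8.10, and 7 or 8 in all 4 RA groups, with levels from 4.10 to 4.43. Klf4 ranked 2 to 5 in the ES groups and 7 or 8 after retinoic acid. Klf6 moved from rank 6 or 7 in the ES groups to rank 1 in all 4 RA groups, with levels from 6.97 to 7.21. Klf3 ranked 2 in all 4 RA groups at a level of 6.07 to 6.26, close to its ES level of 6.07 to 6.35. Klf7 was last in each group, at a level of 2.22 to 2.35 in the ES state and 3.02 to 3.31 after retinoic acid. Neighbours in this order were often near: in het ΔPG ES cells Klf4, Klf5, Klf9 and Klf10 lay between 6.76 and 6.49.

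**Figure D3:**
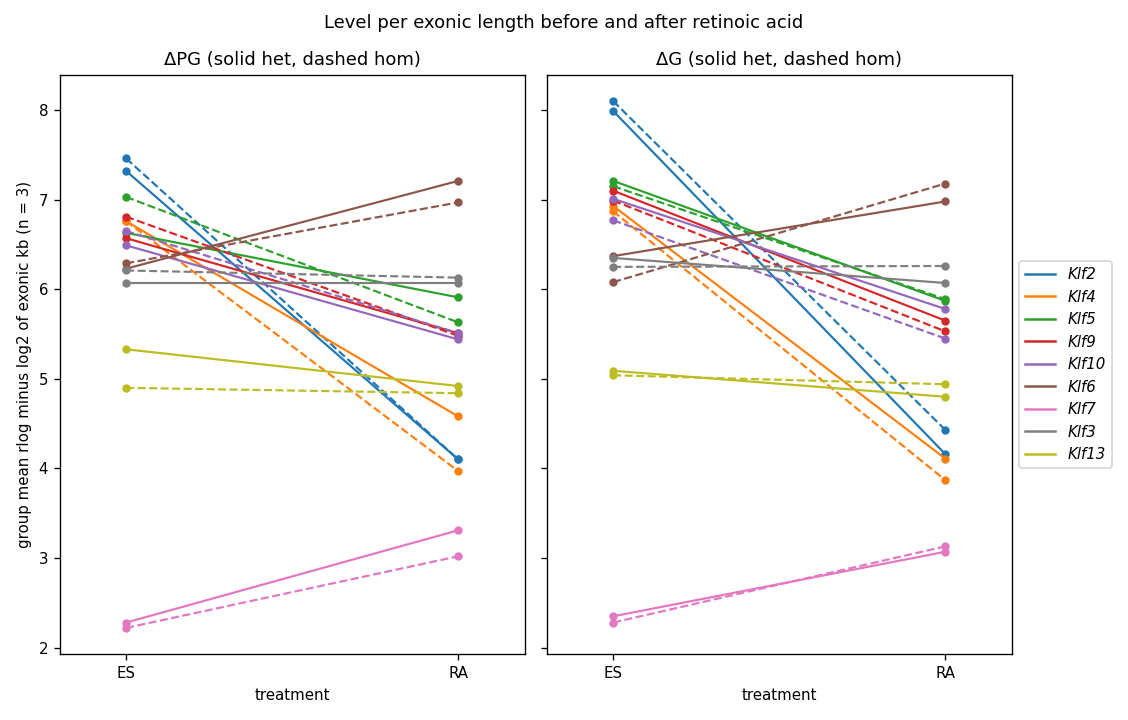
Group mean rlog minus log2 of exonic kilobases for each Klf gene in ES and RA groups (n = 3 per group), with ΔPG and ΔG in separate panels. The lines of Klf2 and Klf4 cross those of Klf6, Klf3 and Klf13, so that Klf2 stands first in each ES group and Klf6 in each RA group; the y axis does not start at 0.

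Of the 8 other Klf genes in the tables, Klf8, Klf12 and Klf15 fell in all 4 comparisons and none rose. The differences of Klf15, a regulator of metabolism, were -2.63, -1.89, -1.97 and -2.01 in het ΔPG, hom ΔPG, het ΔG and hom ΔG cells, and those of the CtBP-binding repressor Klf8 were -1.07, -2.06, -1.86 and -2.29. Klf16 was called lower in het ΔPG cells alone (-0.86), with -0.39, -0.38 and -0.33 in the others, and once the GC trend was removed it was called in all 4 (-0.61 to -0.63). Klf11 was not called, and Klf1, Klf14 and Klf17 had mean rlog values under 1.2 in each group. Of the 9 related Sp genes, Sp5, a Wnt target, fell in all 4 (-2.15 to -1.64) as did Sp2 (-0.69 to -0.53), while Sp6 (0.75 to 1.24) and Sp8 (0.76 to 1.06) rose. With the GC trend removed Sp2 in het ΔPG cells gave -0.38 and was not called.

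The wider network moved with the 3 naive members. Of 13 tested genes of the naive and core pluripotency network, none of them a Klf, 11, 9, 10 and 10 were called lower in het ΔPG, hom ΔPG, het ΔG and hom ΔG cells and none was called higher. The differences ran from -4.61 to -4.25 for Nanog, from -4.88 to -4.27 for Esrrb and from -4.01 to -3.63 for Pou5f1. All 10 retinoic acid response genes listed were called higher, with Cyp26a1, which degrades retinoic acid, up by 4.57 to 5.88 and Rarb by 2.41 to 3.04. Among 10 genes of the LIF-STAT3 pathway, Socs3, the feedback inhibitor, fell (-2.51 to -1.86) and the kinase Jak2 rose (1.48 to 2.14), with 2, 1, 3 and 2 genes called higher and 5, 2, 3 and 3 lower. Stat3 itself differed by -0.67, -0.49, -0.76 and -0.72 and was not called in hom ΔPG cells, where the value missed the limit of 0.5.

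Partners of the Klf proteins and stimulus-responsive genes changed in both directions. Of 10 listed corepressors and coactivators, 2 rose and 3 fell in het ΔPG cells and 4 rose and 4 fell in each of the other 3. The coactivator Ep300 rose by 0.90 to 1.17, the acetyltransferase Kat2b fell (-2.45 to -1.40), and so did Ctbp2, a partner of Klf3 (-1.18 to -0.81). Of 12 immediate early genes, a class in which Klf6 and Klf10 are often counted, 7 rose in each comparison and 2, 1, 1 and 1 fell. Jun rose by 2.72 to 3.44 and Dusp1 fell (-1.21 to -0.56), its value in het ΔPG cells being -0.38 and not called with the GC trend removed.

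Markers of other cells moved with the treatment as well, and their part in the Klf differences was not tested. Of 9 markers of primitive and visceral endoderm, 8 were called higher after retinoic acid in all 4 comparisons, their mean rlog going from between 3.89 and 4.34 in the ES samples to between 6.26 and 7.14 in the RA samples, with Sox7 and Foxa2 under 3 in the ES groups and none under 3 after retinoic acid. Of 7 fibroblast or feeder markers, 4 to 6 were called higher and at most 1 lower, with list means of 2.33 to 2.66 in ES and 4.27 to 4.74 in RA samples, while Thy1, Postn and Lum stayed under a mean of 3 in all 4 RA groups. Of 7 tested trophectoderm markers 4 were called higher, and Eomes was called lower in het and hom ΔPG and het ΔG cells (-0.83 to -0.73), with list means of 3.24 to 3.66 and 4.87 to 5.33. For neural progenitors 3 of 5 (ΔPG) or 6 (ΔG) tested markers were called higher and Tubb3 was called lower in all 4 comparisons (-1.56 to -0.60). Their list means went from between 3.83 and 4.13 to between 4.77 and 4.93 in ΔPG cells. In ΔG cells, with another set of tested markers, they went from between 2.73 and 2.93 to between 3.39 and 3.63. The 6 pluripotency markers were all called lower, from list means of 10.87 to 11.16 to list means of 7.33 to 7.50, so that the ES samples carried the identity their label gives. Mesoderm markers had list means of at most 1.60 in each sample.

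The profiles of Klf2, Klf4 and Klf5 over the 12 samples of each table were set against those of 8957 genes with a mean rlog of at least 5 in both tables. Pearson's r describes likeness here; the 12 points share 2 treatment states and 1 normalization, which raises r for any gene that differs between the states. The genes most like Klf2 by the smaller of the 2 values were the naive factor Tcfcp2l1 (r = 0.998 in ΔPG and 0.997 in ΔG), Spp1 (0.997 and 0.998), Nanog (0.998 and 0.996), Zfp42, also called Rex1 (0.997 and 0.996), and the kinase gene Sgk1 (0.996 and 0.996). Among those most like Klf4 were the metallothionein gene Mt1 (0.993 and 0.995), Cpt1a (0.996 and 0.993), Slc7a1 (0.992 and 0.995) and Dennd2c (0.991 and 0.993). Those most like Klf5 were Ttc37 (0.985 and 0.983), Dars (0.982 and 0.992), Sptlc1 (0.982 and 0.980), Foxn2 (0.978 and 0.984) and Zfp59 (0.977 and 0.984). The 3 lists shared no gene, and the members themselves stood farther down, with Klf4 at rank 202 for Klf2 and Klf2 at rank 71 for Klf4.

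The members differed far less between hom and het samples than between RA and ES samples. In the ES state no member was called in either line, against 13.2% of genes in ΔPG and 0.984% in ΔG cells. These shares depended on the processing: in ΔPG cells 23.4% of the 11904 genes with a mean rlog of at least 3 were called, and 7.27% of them once the trend along exonic GC content was removed, and in ΔG cells 0.2% of genes were called with the replicate number as a block. After retinoic acid Klf4 alone was called, in ΔPG cells, against 0.846% of genes, and no member was called in ΔG cells, against 2.14%. Among genes with a mean rlog of at least 3 the latter shares were 1.59% and 3.03%. On the p limit alone, the limma test gave 4, 3, 2 and 2 members in ΔPG ES, ΔPG RA, ΔG ES and ΔG RA, against 36.1%, 4.58%, 5.22% and 11% of all genes tested. An unadjusted p under 0.05 gave 5, 4, 2 and 3 members, against 38.4%, 14%, 15.4% and 19.6% of genes. An exact permutation test of 3 against 3 samples cannot go below p = 0.1.

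In RA-treated ΔPG cells Klf4 was lower in hom than in het samples (log2 difference -0.61, SE 0.105, 95% interval -0.85 to -0.38, adjusted p = 0.0126), the values being those given above, with no overlap. Leaving out any 1 sample gave -0.51 to -0.66 with an adjusted p of 0.0275 to 0.0606, and removing the GC trend gave -0.61. In RA-treated ΔG cells the same comparison gave -0.24 (-0.47 to 0.0010, adjusted p = 0.257), the lowest het and the highest hom sample both reading 5.66 at 2 decimals, and whether the lines differ was not tested since the tables were normalized apart. Klf6 (-0.23, adjusted p = 0.00895) and Klf7 (-0.29, adjusted p = 0.0759) of the ΔPG cells were past the p limit but within 0.5. Klf5 was -0.28 (adjusted p = 0.159) and Klf2 0.00 (-0.26 to 0.26).

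Other genes differed between the same 2 groups of RA-treated ΔPG cells. Of the 9 endoderm markers 5 were lower in hom cells, among them Lama1 (-0.95) and Col4a1 (-0.92). List means were 6.84 to 6.91 in het and 6.26 to 6.39 in hom samples. Trp53, which encodes p53 and is in none of the lists, was lower too (-2.21). Its hom minus het difference in the ES state is not given here. In RA-treated ΔG cells 3 of the 9 endoderm markers were lower in hom cells, Lama1 (-1.03) among them, with list means of 7.08 to 7.14 and 6.71 to 6.80, while Trp53 gave 0.28 and was not called. The part of these differences in that of Klf4 was not tested. Of 40 genes in the lists of pluripotency, LIF-STAT3, other Klf and Sp genes, none was called by limma between genotypes after retinoic acid in either line, while 9 in ΔPG and 11 in ΔG cells had an unadjusted p under 0.05.

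In the ES state the ΔPG differences ran along GC content. Across 11904 genes with a mean rlog of at least 3 the hom minus het difference fell with exonic GC content (Pearson's r = -0.705 across genes, which are not independent), and each library's deviation from the gene means had a slope on GC, which was 0.282 to 0.290 per 10 points of GC in the 3 het libraries against -0.230 to -0.194 in the 3 hom libraries and -0.108 to 0.135 in the libraries of the other 6 groups. Klf5, with 60.3% GC, and Klf2, with 61.6%, lie above 96.4% and 98.0% of expressed genes in GC content. Genes within 1 point of GC of Klf5 had a median difference of -0.48, while Klf5 was higher in hom cells by 0.40 (SE 0.0484, adjusted p = 0.000416), short of the limit of 0.5. Once the GC trend was removed Klf5 was higher by 0.87 (adjusted p = 1.62e-14) and Klf2 by 0.63 (adjusted p = 6.47e-12), against 0.15 (adjusted p = 0.18) for Klf2 as deposited. Klf13 (55.5% GC) differed by -0.43 (adjusted p = 0.000212) as deposited and by -0.10 (adjusted p = 0.182) with the trend removed; the former is close to the median of -0.33 of genes of like GC content. Klf4 differed by 0.00 (95% interval -0.15 to 0.15) as deposited and by 0.31 with the trend removed, and its direction in this comparison therefore depends on the treatment of GC.

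**Figure D4:**
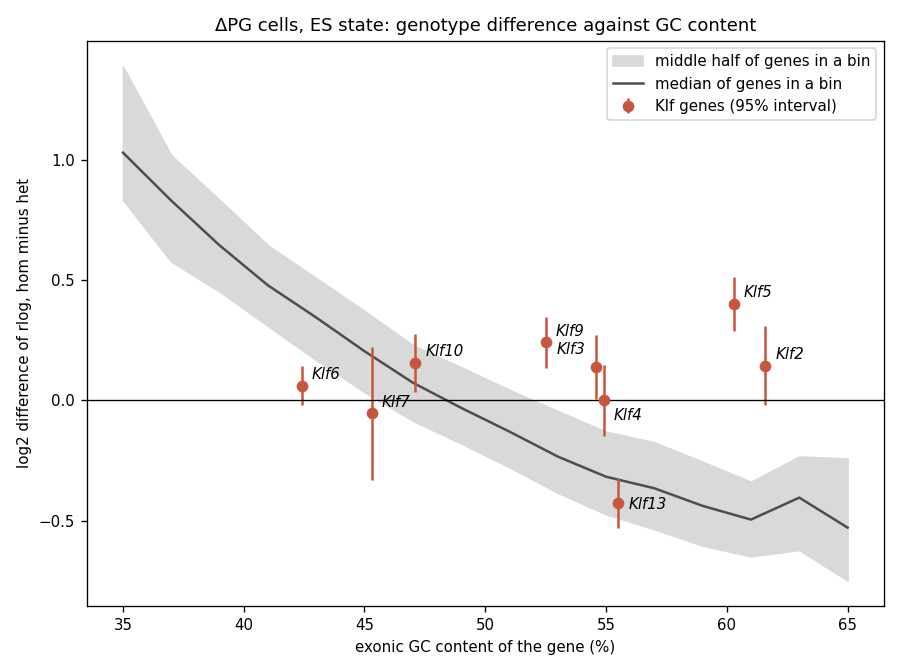
Difference between hom and het ΔPG cells in the ES state (log2 difference of rlog) against the exonic GC content of the gene in percent; the line is the median and the band the range between the quartiles of genes in bins of 2 points of GC with at least 20 genes, and points are the Klf genes with 95% intervals. Klf5 (0.40) and Klf2 (0.15) lie above the band of genes of like GC content, as do Klf9, Klf3 and Klf4, Klf13 (-0.43) and Klf10 (0.16) lie within it, and Klf6 (0.06) and Klf7 (-0.05) lie below it.

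In the same comparison Klf9 was higher by 0.24 (adjusted p = 0.00428) and Klf10 by 0.16 (adjusted p = 0.0544), both within 0.5. Outside the members, Klf8 was called higher (0.72), Klf15 (-0.58) and Klf16 (-0.54) were called lower, and the LIF-STAT3 genes Pim3 (-0.85), Socs3 (-0.79), Junb (-0.70) and Tyk2 (-0.70) were called lower. None of these 7 calls remained once the GC trend was removed. In ΔG cells in the ES state the hom minus het difference was -0.29 for Klf6 (SE 0.0569, adjusted p = 0.0458) and -0.24 for Klf10 (adjusted p = 0.0945). After retinoic acid it was -0.33 for Klf10 (adjusted p = 0.00752) and 0.20 for Klf6 (adjusted p = 0.0414). These 4 differences were within 0.5.

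**Figure D5:**
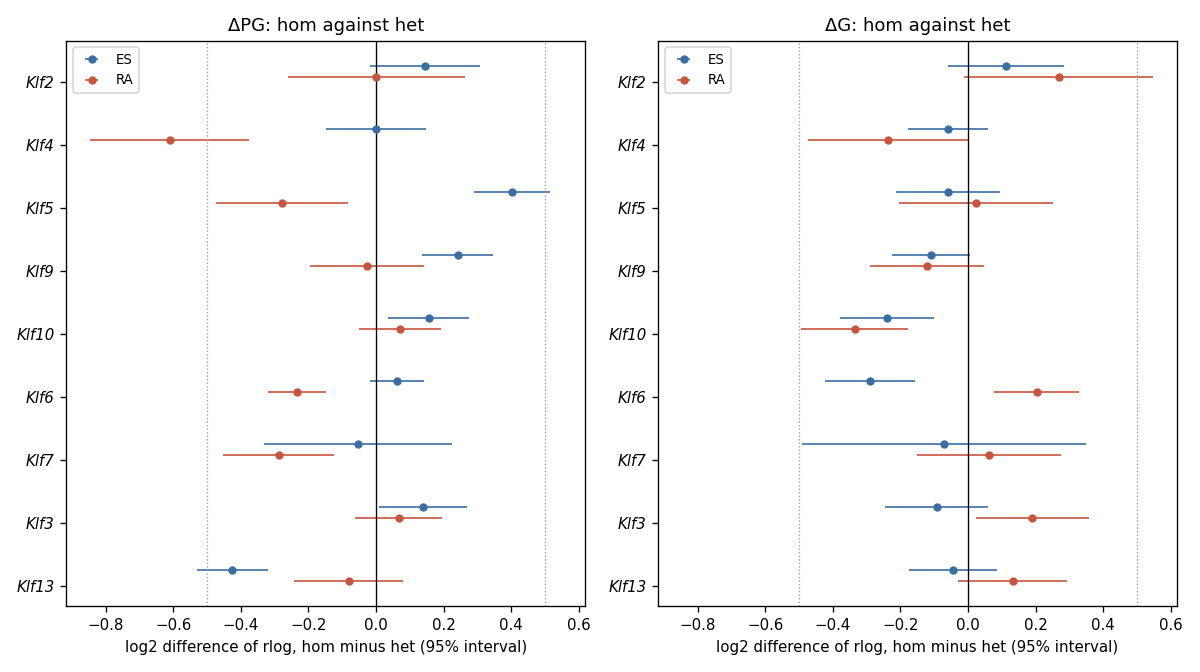
Difference between hom and het samples for each Klf gene in ΔPG (left) and ΔG cells (right), in the ES state and after retinoic acid, as the log2 difference of rlog with its 95% interval (3 against 3 samples); dotted lines mark 0.5 in each direction. Klf4 in RA-treated ΔPG cells (-0.61) is the one value beyond a dotted line, and Klf5 of the ΔPG cells lies on opposite sides of 0 in the 2 states (0.40 and -0.28).

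Whether the response to retinoic acid differed between the genotypes was tested with an interaction term in each line. In ΔPG cells 2 members were called, against 13.9% of genes, and in ΔG cells none, against 2.38%. Among genes with a mean rlog of at least 3 these shares were 25% and 4.49%, and 9.43% and 4.49% once the GC trend was removed. The fall of Klf4 was larger in hom than in het ΔPG cells (term -0.61, SE 0.123, 95% interval -0.88 to -0.35, adjusted p = 0.00196) and so was that of Klf5 (term -0.68, SE 0.102, -0.90 to -0.46, adjusted p = 0.000181). With the GC trend removed these were -0.91 and -1.15, and Klf2 was called too, at -0.63 (adjusted p = 0.000316), against -0.14 (adjusted p = 0.503) as deposited. In the values as deposited the Klf4 term was made of a genotype difference of 0.00 in the ES state and -0.61 after retinoic acid, and the Klf5 term of 0.40 in the ES state and -0.28 after retinoic acid. In ΔG cells the terms for Klf4 and Klf5 were -0.18 (-0.43 to 0.075) and 0.08 (-0.19 to 0.36).

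The term of Klf6, 0.49 (SE 0.0890, 95% interval 0.31 to 0.68, adjusted p = 0.00102), was the largest of the members in ΔG cells. It lay just within the limit of 0.5. It passed the limit without ΔG ES het replicate 1 (0.52), ΔG ES hom replicate 1 (0.53), ΔG RA het replicate 2 (0.56) or ΔG RA hom replicate 2 (0.52), with sample medians set equal (0.50) and with the GC trend removed (0.52). In ΔPG cells the Klf6 term was -0.30 (SE 0.0509, adjusted p = 0.000557) and turned to 0.11 (adjusted p = 0.178) once the GC trend was removed. Klf13 (0.34, adjusted p = 0.0112) and Klf9 (-0.27, adjusted p = 0.0460) of the ΔPG cells were past the p limit alone, the former falling to 0.02 without the GC trend and the latter reaching -0.45.

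The 4C-seq files list regions in contact with the 5430416N02Rik promoter in ESCs, 339 in one replicate and 341 in the other, with no value per region. Their notes name build mm9, yet 9 regions end beyond the chromosome ends of NCBIM37, so members were placed by their GRCm38 positions, and the build remains uncertain. Klf2, Klf4, Klf5, Klf6, Klf7 and Klf9 lay within regions of both replicates, 6 of 9 members, whole genes included, where 8408 of 21631 protein-coding genes (38.9%) touched such a region. Klf3 and Klf10 lay in a region of 1 replicate and Klf13 in none. With the coordinates read as NCBIM37 the count was 8 of 9, Klf10 being left out. The share of all protein-coding genes was not computed for that reading, so 38.9% is no measure for it. The regions had a median length of 2490 and 2300 kb in the 2 replicates, and no contact of a single gene can be read from them.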

How the data were processed

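RNA-seq of 24 samples and 4C-seq of 2 replicates were used. The study's methods give TruSeq Stranded Total RNA libraries with Ribo-Zero depletion, alignment with TopHat2 to mm9 with GENCODE vM1, removal of duplicates with Picard and counting by gene name on the reverse strand with HTSeq. The values the authors deposited are DESeq2 rlog values on a log2 scale, 1 table per line; whether the transform knew the groups is not given in the sources used here. The authors used TopHat2 2.1.0, HTSeq 0.6.0 and DESeq2 1.14.1, per the submitters' processing notes. The 4C-seq files the authors deposited hold region coordinates only. RIP-seq and Capture-C samples were not used here.

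Differences were tested with limma 3.58.1 (R 4.3.3; lmFit and eBayes with a variance trend) on the 6 samples of a comparison, or 12 for an interaction, with Benjamini-Hochberg adjustment over all varying genes (21979 in ΔPG, 22048 in ΔG) in each of 10 comparisons. Calls needed an adjusted p under 0.1 and a difference over 0.5. GC and length trends were lowess fits (span 0.3) over genes with a mean rlog of at least 3. Python 3.11.15 with pandas 2.3.3 was used for the other steps. The members and lists were chosen with earlier results of these data known. The list gene Tfcp2l1 stands in the tables as Tcfcp2l1 and was left out of the list count. The text names the 9 members, at most 4 genes per list and comparison, and the 5 genes most like Klf2, Klf4 and Klf5, except genes that are not reported here. The alternatives were another normalization (quantile, medians), filters, limits, no variance trend, 1 fit of all 12 samples, a replicate block, removal of GC or length trends, and leaving out each sample.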

Additional observations from a re-analysis of the deposited data

Results flagged for a closer look

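Results were flagged where the response to retinoic acid differed between genotypes by the interaction test and the limits used for calls; groups of 3 samples were not searched for single deviating samples. Klf4 in ΔPG cells was flagged because its fall was larger in hom than in het cells, with a term of -0.61 (adjusted p = 0.00196). Over the alternatives its term ran from -0.91 to -0.51 and its adjusted p from 2.01e-07 to 0.00771. Klf5 in ΔPG cells was flagged for the same reason, with a term of -0.68 (adjusted p = 0.000181) and a range of -1.15 to -0.62 over the alternatives. With the GC trend removed the terms were -0.91 and -1.15. If each genotype was 1 clone, as the study's plot marks it, clone and genotype cannot be told apart.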

How the results depend on the processing

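The 7 members called after retinoic acid kept their direction in all 4 comparisons under every alternative run; the call of Klf5 in het ΔPG cells was lost with the GC trend removed (-0.48, also with the replicate block), and Klf13 there was called with the length trend removed (-0.59). The count of members called was 6 to 8 in het ΔPG, 7 to 9 in het ΔG and 7 in the other 2. Shares of the genes tested ran from 27% to 49.5% in het ΔPG and from 24.8% to 45.5% in het ΔG. In hom cells they ran from 23.3% to 42.6% (ΔPG) and from 24.7% to 46.4% (ΔG). These ranges leave out the setting without the limit of 0.5, which gave 57.4%, 54.5%, 52% and 53.4% in the same order. Klf4 in RA-treated ΔPG cells stayed called under every alternative run. Without the limit of 0.5 the counts were 4 in ΔPG ES, 3 in ΔPG RA, 2 in ΔG ES, 2 in ΔG RA, 5 for the ΔPG interaction and 1 for the ΔG interaction, against 36.1%, 4.58%, 5.22%, 11%, 29.1% and 5.28% of all genes. With the GC trend removed, alone or with the replicate block, 2 members (Klf2 and Klf5) were called in ΔPG ES, against 865 of 11904 genes (7.27%; 2784 before removal). With the replicate block 44 genes were called in ΔG ES and 112 in ΔPG RA, against 217 and 186 without it. For the ΔG interaction 1 member, Klf6, was called with sample medians set equal (0.50) and with the GC trend removed, alone or with the block (0.52). The shares of genes called were 2.39%, 4.49% and 4.5% in that order. Leaving out 1 sample gave 0 to 1 members, against 1.9% to 2.14% of genes. Klf6 was called without ΔG ES het replicate 1 (0.52), ΔG ES hom replicate 1 (0.53), ΔG RA het replicate 2 (0.56) or ΔG RA hom replicate 2 (0.52).

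Values that changed sign were near 0 or not called. With the GC trend removed, with or without the replicate block, these were Klf3 in the het ΔPG response (0.21), Klf3 in the hom ΔG response (-0.0855), Klf4 (0.31) and Klf6 (-0.35) in ΔPG ES, Klf2 in ΔPG RA (-0.0075), Klf5 in ΔG RA (-0.0007), and Klf6 (0.11) and Klf10 (0.0155) in the ΔPG interaction. With the length trend removed they were Klf3 in the het ΔPG response (0.0744), Klf4 in ΔPG ES (0.0336) and Klf2 in ΔPG RA (-0.0076). Quantile normalization turned Klf3 in the het ΔPG response (0.0288), and equal medians turned Klf3 in the hom ΔG response (-0.0778) and Klf4 in ΔPG ES (0.0143). Leaving out 1 sample gave ranges across 0 for Klf3 in the het ΔPG (-0.0386 to 0.0145) and hom ΔG response (-0.0715 to 0.057), Klf4 (-0.0439 to 0.0671) and Klf7 (-0.16 to 0.0323) in ΔPG ES, Klf9 (-0.084 to 0.0293) and Klf2 (-0.0854 to 0.0813) in ΔPG RA, Klf7 (-0.19 to 0.11) and Klf5 (-0.0964 to 0.0056) in ΔG ES, Klf5 in ΔG RA (-0.0544 to 0.16), and Klf9 (-0.0681 to 0.0263) and Klf7 (-0.0473 to 0.26) in the ΔG interaction. The cause was not tested.

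Replicate numbers did not pair the samples: correlations of same-numbered deviations were at most 0.0855, and the replicate block alone changed no member's call in 10 comparisons. The 4C-seq count was 6 with whole genes required and 8 read as NCBIM37. The share of all genes was computed for neither setting. Without counts, depth is unknown and no counting error can be given.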
